A study of Mus musculus with 6 samples.

Results

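Elastic fibres are the extensible part of the extracellular matrix of skin, lung and arteries. The elastic fibre genes described here are elastin, the fibrillins, the fibulins and the microfibril-associated proteins, 10 genes by name: Eln, Fbn1, Fbn2, Fbln1, Fbln2, Fbln5, Efemp1, Efemp2, Mfap4 and Mfap5. A gene was included where a probe set of the array was annotated to its symbol alone, and the probe set with the highest mean over all samples stood for it. This gave 8 measured genes among the 18193 named genes of the series; Fbn1 and Efemp2 had no probe set listed under their symbol alone in the annotation used, and were not analysed here. The members were named by function and not by how they differed between the groups.

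The series compared Delta9 fibroblasts, which carry the Delta9 allele of Lmna, with wild-type (WT) fibroblasts, in 3 samples each on 1 Affymetrix array per sample. Lmna encodes lamin A and lamin C, the proteins of the meshwork under the nuclear membrane. All lines were of the C57bl6X129S3/J strain, came from animals with shared parents, were taken at passage 3 and were kept for 72 hours without serum; GEO's sample labels give them as adult and its design text as post-natal. The sources used here do not say whether 1 or both copies of Lmna were altered, or from how many animals each group was drawn; p-values therefore reflect only the spread among these cultures.

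An elastic fibre is built in steps. Fibrillin microfibrils are laid down first, and tropoelastin, the soluble product of Eln, is secreted, gathers into droplets at the cell surface and is placed on them. Fibulin-5, the product of Fbln5, binds tropoelastin, cell surface integrins and the lysyl oxidase-like enzyme of Loxl1; lysyl oxidases then crosslink the elastin into an insoluble core. Most elastin is made before and shortly after birth, and dermal fibroblasts are among its main producers.

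Among the fibulin genes, the stretches before the start of transcription of Fbln5 and Fbln1, which were lower in Delta9 in all samples, are shown with those of Fbln2 and Efemp1, for which the groups overlapped. The sequences are from RefSeq, build GRCm38.p6, and 4 of the 8 measured genes had one in the table used. Each is the 250 bases before the most upstream start listed, 5′ to 3′ on the gene's strand. Capitals mark the GC box GGGCGG, the SMAD box CAGAC and the TATA box TATAAA, searched on both strands, so that CCGCCC and GTCTG are matches on the other strand.
Fbln5, chr12:101819120-101819369, minus strand: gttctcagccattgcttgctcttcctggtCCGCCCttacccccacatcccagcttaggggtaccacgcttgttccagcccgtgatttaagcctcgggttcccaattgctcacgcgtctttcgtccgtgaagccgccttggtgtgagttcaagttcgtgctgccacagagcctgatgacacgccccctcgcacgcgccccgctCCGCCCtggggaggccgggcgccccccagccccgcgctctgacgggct
Fbln1, chr15:85205699-85205948, plus strand: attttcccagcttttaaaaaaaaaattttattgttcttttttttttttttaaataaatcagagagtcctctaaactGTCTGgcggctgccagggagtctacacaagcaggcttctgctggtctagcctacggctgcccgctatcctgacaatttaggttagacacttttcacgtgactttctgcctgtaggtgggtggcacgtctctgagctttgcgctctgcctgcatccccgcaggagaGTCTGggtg
Fbln2, chr6:91212514-91212763, plus strand: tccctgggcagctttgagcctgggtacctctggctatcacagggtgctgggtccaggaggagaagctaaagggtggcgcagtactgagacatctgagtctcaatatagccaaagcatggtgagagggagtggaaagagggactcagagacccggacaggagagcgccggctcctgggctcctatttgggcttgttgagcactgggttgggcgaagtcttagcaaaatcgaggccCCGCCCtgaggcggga
Efemp1, chr11:28852955-28853204, plus strand: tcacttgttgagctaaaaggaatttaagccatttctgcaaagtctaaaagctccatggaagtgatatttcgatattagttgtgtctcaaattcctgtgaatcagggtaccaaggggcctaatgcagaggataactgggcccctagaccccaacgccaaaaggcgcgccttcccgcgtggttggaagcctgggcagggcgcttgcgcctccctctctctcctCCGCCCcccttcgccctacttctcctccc

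The Fbln5 stretch held 2 GC boxes, and 65.2% of its bases were G or C. The Fbln1 stretch held 2 SMAD boxes and no GC box, with 46.4% G or C. Fbln2 and Efemp1 held 1 GC box each and no SMAD box. None of these 4 stretches held TATAAA. Of all 32851 stretches of this length in the table, 32.7% held a GC box, 42.2% a SMAD box and 12.4% a TATA box, so each of these matches is common and is a description of the letters only.

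The values are the authors' log2 probe set summaries, and a difference is the mean log2 value of Delta9 minus that of WT, with its moderated standard error (SE). Call is used for an adjusted p (limma, Benjamini-Hochberg over all genes) under 0.05. Of all genes tested, 0.055% were called lower and 0.0055% higher in Delta9. Lmna itself had 7.07, 6.95 and 6.11 in Delta9, against 8.35, 8.89 and 8.78 in WT, on its brightest probe set, with a difference of -1.96 and an adjusted p of 0.0899. Another Lmna probe set averaged 5.58 ± 0.21 in Delta9 and 9.00 ± 0.37 in WT (log2, SD, n = 3), a difference of -3.42 that was called in a limma fit over all probe sets (adjusted p 0.00421). In all, 4 of the 5 Lmna probe sets were lower in Delta9 without overlap, and their place in the gene was not determined here. All 12 fibroblast markers lay above the median gene in mean level, and all 12 had a lower mean in Delta9, with a median difference of -0.28. Their mean relative to the 6 samples was -0.11, -0.27 and -0.22 in Delta9, and 0.02, 0.23 and 0.35 in WT, without overlap. Of the 16 macrophage markers, 15 lay above the median gene in mean level, and none was at 0. All 16 had a higher mean in Delta9. Their summed linear signal ran between 23500 and 37700 in Delta9, and between 5680 and 26100 in WT. Poly-A spike-in transcripts, added before labelling, averaged 4.87 on the array of Delta9 replicate 3 and 4.55 on that of WT replicate 1; the range on the remaining 4 was 5.25 to 5.67. The Gapdh control probe sets' 3' signal minus their 5' signal, a measure of RNA quality and labelling, was 0.25, 0.23 and 0.57 log2 in Delta9, and 0.57, 0.49 and 0.51 in WT. The same measure for beta-actin was 0.68, 0.51 and 0.84 in Delta9, and 0.86, 0.82 and 1.41 in WT, highest at WT replicate 3. The part of these measures in the results was not tested.

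In Delta9 fibroblasts, elastin and 2 fibulins, Eln, Fbln5 and Fbln1, had lower values than in WT with no overlap between the groups, by 2.3-fold, 2.17-fold and 1.46-fold. None of the 8 genes was called, in either direction. The groups did not overlap, with Delta9 lower, for 3 of the 8 genes, beside 9.99% of all genes. The same 3 of 8 had an unadjusted p under 0.05 and a lower value (limma), beside 6.06% of all genes, and 0 of 8 had one with a higher value, beside 4.54%. In all, 7 of the 8 genes had a lower mean in Delta9, beside 53.2% of all genes. The median difference of the 8 was -0.40, against -0.01 over all genes. It was -0.25 for the 7 genes other than Eln, beside -0.28 for the 12 fibroblast markers.

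**Figure D1:**
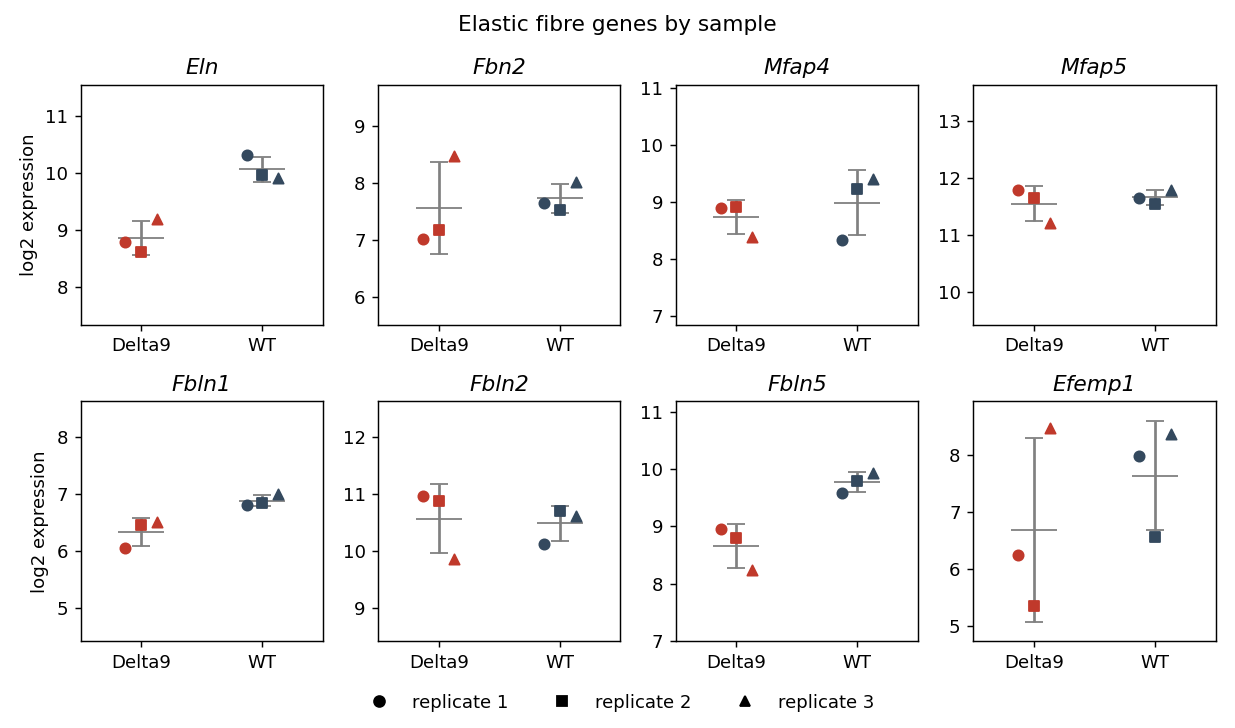
Log2 expression (vertical axis) of the 8 measured elastic fibre genes in each Delta9 sample (left, red) and WT sample (right, dark), with symbols for the replicate number, grey bars for the mean and SD (n = 3), and axes of equal span but different position. Eln, Fbln5 and Fbln1 have all Delta9 points under all WT points, while Efemp1 runs between 5.35 and 8.47 in Delta9 alone.

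Elastin is the protein of the fibre's core. Eln read 8.78, 8.61 and 9.18 in Delta9, against 10.31, 9.96 and 9.91 in WT. The highest Delta9 sample lay 0.72 log2 under the lowest WT sample. The means were 8.86 ± 0.29 in Delta9 and 10.06 ± 0.22 in WT (log2, SD, n = 3), a difference of -1.20 (SE 0.19, 95% interval -1.64 to -0.76) with an adjusted p of 0.112, above the threshold. By p it was the gene ranked 51 of 18193. A second, dimmer probe set, 1420854_at, read 5.66, 6.03 and 6.32 in Delta9, against 6.59, 6.47 and 6.44 in WT. It was also lower without overlap, though by less, at -0.50 (SE 0.20).

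The difference of Eln was of like size in both parts of the split by spike-in signal. It was -1.24 within the 4 arrays of higher signal and -1.13 between Delta9 replicate 3 and WT replicate 1, a pair that allows no test. With the split as a block, the SE of the Eln difference was 0.08 and the adjusted p was 0.00636, a call; this block called 0.561% of all genes lower. The split was known from earlier results of these data, and with the macrophage markers' mean as a covariate Eln differed by -1.45 (SE 0.20, adjusted p 0.316). In bulk RNA, fewer cells that make elastin and less Eln RNA per cell cannot be told apart. Beside the -1.20 of Eln, the fibroblast markers were lower by less, from -1.07 (Lum) to -0.00 (Col3a1), with 0 called: Prrx1, a mesenchymal transcription factor, differed by -0.78 (SE 0.16) and Col1a1, a chain of type I collagen, by -0.26 (SE 0.08), the 2 of the 12 whose groups did not overlap. The part of the fibroblast markers in the results was not tested.

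The 5 genes whose profile over the 6 samples was nearest that of Eln were Aspn, Kcne4, Limch1, Ndrg4 and Ssc5d. Nearness was the root mean square distance between values centred on each gene's mean, over 2864 genes at or above the median level with a range of at least 0.5 times that of Eln. The distance was 0.12 log2 for Aspn and 0.15 for Ssc5d. Aspn, the matrix proteoglycan asporin, had 7.86, 7.88 and 8.35 in Delta9, against 9.20, 9.03 and 9.08 in WT. Like Eln, these values were highest at replicate 3 in Delta9 and at replicate 1 in WT. Of the other elastic fibre genes, Fbln1 at 0.41 and Fbln5 at 0.44 lay nearest to Eln, and Efemp1 at 0.94 lay farthest.

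Fibrillins form the microfibrils on which elastin is laid. Fibrillin-2, the product of Fbn2, is most abundant in developing tissue. Fbn2 read 7.02, 7.17 and 8.48 in Delta9, against 7.65, 7.53 and 8.01 in WT. Delta9 replicate 3 was the highest of all samples, and the other Delta9 samples were the lowest, so the groups overlapped. The difference was -0.17 (SE 0.38, 95% interval -1.06 to 0.72, adjusted p 0.903). It was -0.67 within the 4 arrays with more spike-in signal and 0.83 between the other pair. The other probe set of Fbn2, 1422831_at, gave 0.19 (SE 0.43), and the sign also turned without Delta9 replicate 1 (0.10) or Delta9 replicate 2 (0.02).

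Mfap4 and Mfap5 encode glycoproteins that bind microfibrils; the product of Mfap5, MAGP-2, binds fibrillins, and that of Mfap4 binds elastin and fibrillin-1. Mfap4 read 8.90, 8.92 and 8.39 in Delta9, against 8.34, 9.22 and 9.41 in WT. The low values were those of Delta9 replicate 3 and WT replicate 1, the arrays of lower spike-in signal, and the groups overlapped. The difference was -0.25 (SE 0.30, 95% interval -0.96 to 0.45, adjusted p 0.796), and with the macrophage mean as a covariate it turned to 0.27 (SE 0.24).

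Mfap5 read 11.78, 11.65 and 11.20 in Delta9, against 11.65, 11.53 and 11.78 in WT. Apart from Delta9 replicate 3, which was lowest, the samples lay close together. Its difference of -0.11 (SE 0.16) had the narrowest interval of the 8 genes, -0.50 to 0.27, so a change as large as that of Eln lies outside it. Without Delta9 replicate 3 it was 0.06, and the second probe set of Mfap5 gave -0.08 (SE 0.25).

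**Figure D2:**
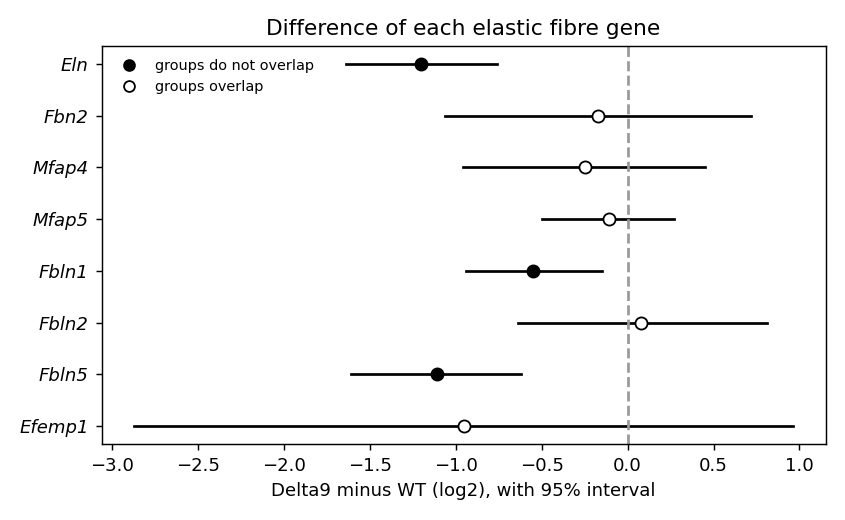
Difference of each measured elastic fibre gene, Delta9 minus WT in log2 units (horizontal axis), with its 95% interval from limma; filled points are genes whose groups do not overlap. The intervals of Eln, Fbln5 and Fbln1 lie below 0, those of the other 5 genes include it, and no gene passed the adjusted threshold.

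The fibulins link microfibrils, elastin and cells, and their differences ran from -1.11 to 0.08. Fbln5, which mice need to form elastic fibres, read 8.96, 8.79 and 8.23 in Delta9, against 9.59, 9.79 and 9.94 in WT. Every Delta9 sample was at least 0.63 log2 under every WT sample. The means were 8.66 ± 0.38 in Delta9 and 9.77 ± 0.18 in WT (log2, SD, n = 3), a difference of -1.11 (SE 0.21, 95% interval -1.61 to -0.62) with an adjusted p of 0.182. It was -0.99 within the 4 arrays with more spike-in signal and -1.36 between the other pair, and with the split as a block its adjusted p was 0.0171. With the macrophage mean as a covariate it was -0.87 (SE 0.23, adjusted p 0.524). The other probe set of Fbln5, 1446377_at, was dim, between 2.74 and 3.02 in all samples, and gave -0.05 (SE 0.11).

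Fbln1, whose product binds fibronectin and elastin, read 6.05, 6.46 and 6.51 in Delta9, against 6.82, 6.84 and 7.00 in WT. The groups were 0.30 log2 apart at their nearest samples. The difference was -0.55 (SE 0.17, 95% interval -0.94 to -0.15, adjusted p 0.348), and it was -0.30 between the pair of lower spike-in signal, against -0.67 within the other 4 arrays. Its probe sets disagreed. The dimmer 1422540_at was lower in Delta9 by more, with 3.44, 3.75 and 4.15 in Delta9 against 4.68, 4.48 and 4.64 in WT, and 1439688_at gave 0.03 (SE 0.16) with overlapping groups.

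Fbln2 encodes a fibulin that is made by mesenchymal cells of skin and of the developing heart. Fbln2 read 10.95, 10.87 and 9.86 in Delta9, against 10.12, 10.70 and 10.61 in WT. As with Mfap4, Delta9 replicate 3 and WT replicate 1 were low. It was the one member with a higher mean in Delta9, and the difference of 0.08 (SE 0.31, 95% interval -0.64 to 0.81, adjusted p 0.945) was small beside the spread. It turned to -0.10 without WT replicate 1, to -0.11 without Delta9 replicate 1 and to -0.07 without Delta9 replicate 2, so it has no settled direction.

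Efemp1 encodes fibulin-3, which in mice maintains the connective tissue of fascia. Efemp1 read 6.24, 5.35 and 8.47 in Delta9, against 7.99, 6.56 and 8.37 in WT. It varied more within the groups than any other member, with an SD of 1.61 in Delta9 and 0.95 in WT. Replicate 2 was the lowest sample of each group. The difference of -0.95 (SE 0.82, adjusted p 0.714) had an interval of -2.87 to 0.96. It was -1.67 within the 4 arrays with more spike-in signal and 0.48 between the other pair.

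The members therefore differed in which sample stood out. Delta9 replicate 3 was the highest Delta9 sample for Eln, Fbn2, Fbln1 and Efemp1, and the lowest for Fbln2, Fbln5, Mfap4 and Mfap5. Fbln2, Mfap4 and Mfap5 had the most similar profiles, at distances of 0.29 to 0.33 log2 from each other, whereas Fbln2 and Efemp1 lay 1.52 apart. Averaged over the 8 genes and taken relative to the mean of the 6 samples, the level was -0.30, -0.40 and -0.10 in Delta9, and 0.17, 0.13 and 0.49 in WT.

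Other genes of elastic fibre assembly and turnover were set beside the members, in 9 lists by role. Of the 50 measured genes, 34 had a lower mean in Delta9, beside 53.2% of all genes. In limma, 1 of the 50 was called lower, beside 0.055% of all genes, and 0 were called higher, beside 0.0055%. At an unadjusted p under 0.05 (limma), 10 of the 50 were lower, beside 6.06% of all genes, and 6 were higher, beside 4.54%. The groups did not overlap for 10 of the 50 genes with Delta9 lower, beside 9.99% of all genes. With Delta9 higher they did not overlap for 8 of the 50, beside 7.27% of all genes. The median difference was -0.15.

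**Figure D3:**
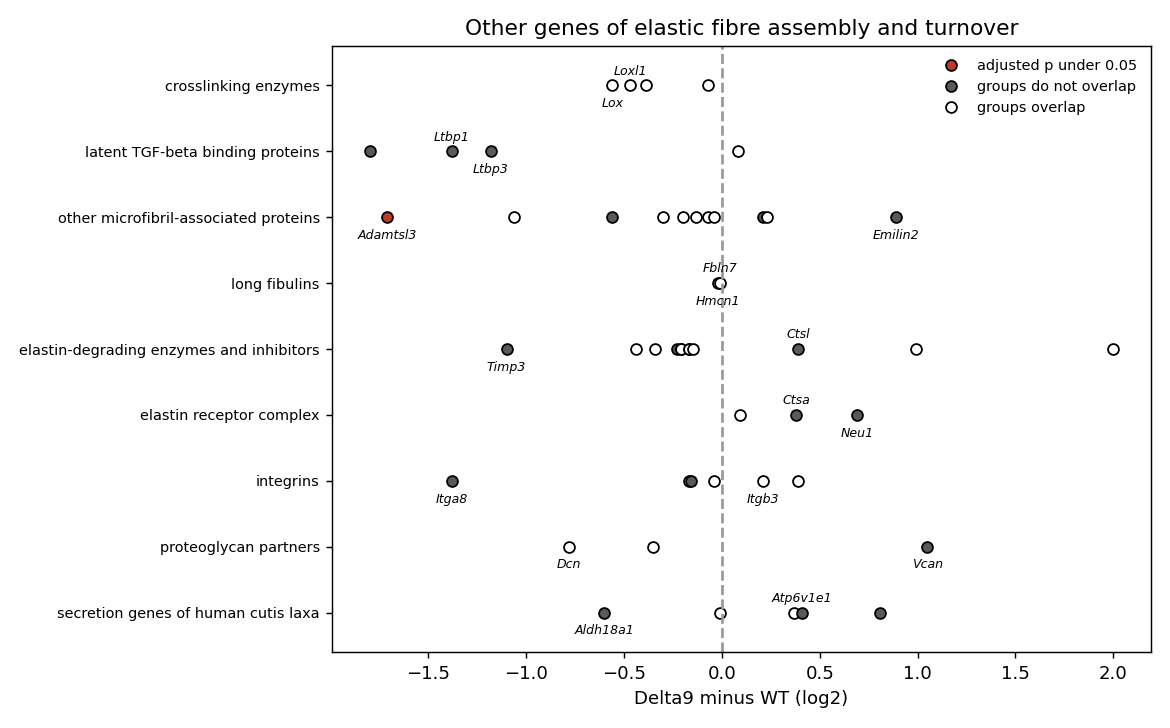
Differences of the 50 other genes of elastic fibre assembly and turnover, Delta9 minus WT in log2 units (horizontal axis), by role; the red point passed the adjusted threshold, grey points have groups that do not overlap, and the 2 genes of lowest p in each list are named. Adamtsl3 is the red point at -1.71, and Ltbp1 and Ltbp3 stand at -1.38 and -1.18.

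The gene that fell was Adamtsl3, which belongs to the ADAMTS-like family; in human and mouse several of that family bind fibrillin microfibrils. Adamtsl3 had 5.80, 6.10 and 6.35 in Delta9, against 7.75, 7.82 and 7.79 in WT, a difference of -1.71 (SE 0.17, adjusted p 0.0328). The WT samples lay close together, all above the Delta9 samples. The call was lost without any 1 of 5 samples, the exception being Delta9 replicate 3 (adjusted p 0.0148), where the others ran from 0.104 to 0.195. It was also lost with the macrophage mean as a covariate (adjusted p 0.282), where the difference was -1.74. That setting called 3 of all 18193 genes lower, against 10 without the covariate. In the same list of 11 measured microfibril-associated proteins, Emilin2, an elastic fibre interface glycoprotein, had 8.60, 8.31 and 8.14 in Delta9, against 7.84, 7.48 and 7.07 in WT (difference 0.89, SE 0.22, adjusted p 0.269).

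The latent TGF-beta binding proteins share their domain structure with the fibrillins, and some of them hold latent TGF-beta on microfibrils. Of the 4 genes, 3 were lower in Delta9 without overlap (beside 9.99% of all genes) and 0 were called (limma; the same 3 had an unadjusted p under 0.05, beside 6.06% of all genes). Ltbp3 had 8.20, 8.35 and 8.54 in Delta9, against 9.31, 9.41 and 9.90 in WT (difference -1.18, SE 0.19, adjusted p 0.114). Ltbp1 had 4.40, 3.74 and 3.89 in Delta9, against 5.11, 5.20 and 5.88 in WT (difference -1.38, SE 0.26, adjusted p 0.183). Its mean level lay just below the median gene (percentile 49.1). The third was Ltbp2, which is named outside the rule for its place in this count; it had 8.61, 9.26 and 6.61 in Delta9, against 9.31, 10.19 and 10.39 in WT, with Delta9 replicate 3 far below the rest. Ltbp4, also named outside the rule, whose product binds fibulin-5, differed by 0.08 (SE 0.23).

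The crosslinking enzymes had lower means in Delta9 for 4 of 4 genes, beside 53.2% of all genes, and for all 4 the groups overlapped. Lox, the main lysyl oxidase, had 12.41, 12.23 and 11.48 in Delta9, against 12.40, 12.58 and 12.81 in WT (difference -0.56, SE 0.24, adjusted p 0.472). Loxl1 had 10.65, 10.75 and 9.89 in Delta9, against 10.55, 10.96 and 11.20 in WT (difference -0.47, SE 0.26, adjusted p 0.567). For both, Delta9 replicate 3 was the lowest sample. The list's mean relative to the 6 samples was 0.25, 0.08 and -0.89 in Delta9, and -0.24, 0.23 and 0.57 in WT. The smooth muscle and myofibroblast markers had a like pattern, 0.29, -0.05 and -0.85 in Delta9, and -0.03, 0.18 and 0.45 in WT; their part in the result was not tested.

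**Figure D4:**
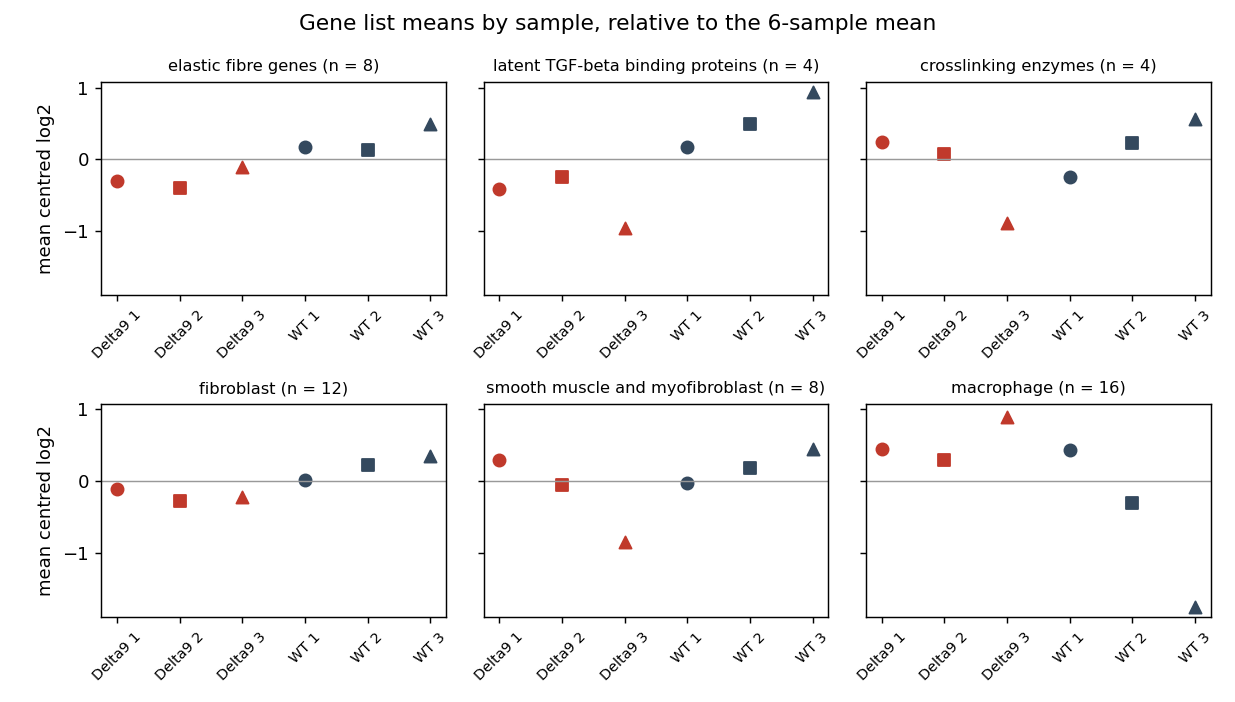
Mean of each gene list on each array relative to its mean over the 6 arrays (vertical axis, log2), for Delta9 samples (red, left) and WT samples (dark, right). The elastic fibre genes, the latent TGF-beta binding proteins and the fibroblast markers are lower on all Delta9 arrays than on all WT arrays. The crosslinking and myofibroblast lists are lowest on Delta9 replicate 3, and the macrophage markers are lowest on WT replicate 3 at -1.76.

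In the elastin receptor complex, the enzymes of Neu1 and Ctsa stand beside a splice form of the Glb1 product. For 3 of 3 genes the mean was higher in Delta9, where 53.2% of all genes had a lower mean. In limma 0 were called, and 1 of the 3 was higher at an unadjusted p under 0.05, beside 4.54% of all genes. Neu1, a sialidase, had 5.70, 5.28 and 5.74 in Delta9, against 4.83, 5.03 and 4.80 in WT (difference 0.69, SE 0.17, adjusted p 0.263). Ctsa, its protective protein, had 9.23, 9.16 and 9.68 in Delta9, against 9.06, 9.06 and 8.82 in WT (difference 0.38, SE 0.17). All 3 also encode lysosomal enzymes, and macrophages express them; the macrophage markers moved the same way, and their part in this was not tested.

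Among 12 elastin-degrading enzymes and inhibitors, 9 had a lower mean in Delta9, beside 53.2% of all genes, and 3 a higher mean. The 3 higher genes were all proteases. The 9 lower genes were the inhibitors Timp1, Timp2, Timp3 and Timp4 and the other proteases of the list. In limma 0 of the 12 were called. At an unadjusted p under 0.05 (limma), 2 of the 12 were lower, beside 6.06% of all genes, and 1 was higher, beside 4.54%. Ctsl, the protease cathepsin L, had 11.57, 11.72 and 11.45 in Delta9, against 11.09, 11.32 and 11.16 in WT (difference 0.39, SE 0.11, adjusted p 0.307). Timp3, an inhibitor of metalloproteases that is bound to the matrix, had 10.25, 10.02 and 8.57 in Delta9, against 10.50, 10.83 and 10.82 in WT (difference -1.10, SE 0.41, adjusted p 0.420).

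The remaining roles gave no call either. Of the 6 integrins that bind elastic fibre proteins, Itga8 had the lowest p, with 3.81, 4.40 and 3.75 in Delta9 against 5.52, 5.50 and 5.07 in WT (difference -1.38, SE 0.22, adjusted p 0.115). Itga8 lay just below the median gene in mean level (percentile 48.8). Itgb3 was dimmer and differed by 0.21 (SE 0.13). Of the 3 proteoglycan partners, Vcan, the large proteoglycan versican, had 8.63, 8.30 and 8.46 in Delta9, against 7.04, 7.13 and 8.07 in WT (difference 1.05, SE 0.28, adjusted p 0.291). Dcn, decorin, went the other way at -0.78 (SE 0.27, adjusted p 0.401), with groups that overlapped at Delta9 replicate 3. The further fibulin family genes Fbln7 and Hmcn1 differed by -0.01 (SE 0.28) and -0.02 (SE 0.16). The label long fibulins was the name of their list only, and does not class Fbln7. Of 5 measured genes whose human counterparts are linked to cutis laxa, Aldh18a1 differed by -0.60 (SE 0.15) and Atp6v1e1, a proton pump subunit, by 0.41 (SE 0.11).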

How the data were processed

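The deposited values are the authors' log2 probe set summaries for 45101 probe sets on 6 arrays; how the arrays were summarised and normalized is not given in the sources used here, and the values' range was taken to show a log2 scale. The table holds no detection calls. Per the labels' protocols, Trizol-extracted total RNA was labelled with biotin and hybridised to 1 array per sample. Tests left out 64 control probe sets. The 34945 probe sets with 1 symbol in the platform annotation gave 18193 genes, each represented by its brightest probe set. Delta9 was compared with WT in limma 3.58.1 under R 4.3.3 (lmFit, eBayes with trend), with Benjamini-Hochberg adjustment over all genes, a threshold of 0.05, no filter and no pseudocount; the model was tested on simulated data. The 95% intervals are the model's, unadjusted. The members, lists and alternatives were chosen with earlier results of these data known. All members were named, with every called gene of the pathway lists and the 2 of lowest p in each list; 8 of 58 pathway genes had no probe set under 1 symbol. Figures used matplotlib 3.10.9. Precision is limited by having 3 arrays in each group.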

Additional observations from a re-analysis of the deposited data

How the results depend on the processing

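In all, 17 other settings were run, beside the other probe sets. Eln, Fbln5, Fbln1 and Efemp1 kept a lower value in Delta9 in all 17, but much of this was fixed in advance. The variance settings, leaving out dim genes, the replicate block and the spike-in block cannot change these differences. For Eln, Fbln5 and Fbln1, whose groups do not overlap, leaving out samples cannot turn the sign either. Over the 17 settings Eln ran from -1.45 to -0.85 and Fbln5 from -1.26 to -0.58. The count of elastic fibre genes called lower, 0 of 8, became 2, Eln and Fbln5, with array weights (0.561% of all genes called lower), with the spike-in split as a block (0.561%) and within the 4 arrays with more spike-in signal (0.28%). Within those 4 arrays the adjusted p (limma) was 0.02608 for Eln and 0.04998 for Fbln5, just under the threshold. The count ran from 0 to 1 with single samples left out, the 1 being Eln without Delta9 replicate 3 (0.379%). The median difference of -0.40 was -0.67 within those 4 arrays, and with single samples left out its lowest value was -0.63 (Delta9 replicate 3 omitted) and its highest -0.27 (WT replicate 3 omitted). Between the 2 arrays of lower spike-in signal, a comparison chosen after seeing the data, it was -0.28. Of the pathway genes 1 was called lower; this was 3 with array weights, 2 with the spike-in block, 0 with the macrophage covariate and 0 to 2 with single samples left out, and 1 was called higher with the spike-in block. Small differences changed sign. Fbn2 was 0.01 with the mean of its probe sets, 0.19 on its other probe set and -0.63 to 0.10 with single samples left out. Fbln2 was -0.01 on its other probe set and -0.11 to 0.44 with single samples left out. Fbln1 was 0.03 on 1439688_at. Mfap4 was 0.27 with the macrophage covariate. Mfap5 was 0.03 with it, 0.06 with array weights and 0.06 within the 4 arrays, and ran from -0.23 to 0.06 with single samples left out. The cause of these changes was not tested. With the replicate number as a block, 0 elastic fibre genes and 0 pathway genes were called, and 0 of all 18193 genes. With the macrophage covariate, 3 of all genes were called lower and 0 higher, against 10 and 1 without a covariate. Over all genes, deviations of same-numbered samples from their group means correlated at -0.40, 0.17 and -0.43. With 3 samples in each group, these values cannot show whether the numbers pair the samples. The sources used here state no pairing.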
